A study of Mus musculus with 13 samples.

Results

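The 40 genes described here encode the enzymes and transporters of glucose breakdown in mouse cortex, from hexokinase to malate dehydrogenase. They were found by gene symbol among the 53832 gene entries of the TPM table, and all 40 had an entry. Aldoa had a second, low entry, and the entry with the higher mean was used. They fall into 16 genes of glycolysis, 5 of lactate metabolism and sugar or lactate transport, 6 of the pyruvate dehydrogenase step and 13 of the citric acid cycle. The first 21 are called the glycolytic side below and the other 19 the mitochondrial side, although Mdh1, counted there among the citric acid cycle genes, encodes a cytosolic enzyme.

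Poly(A) RNA from the right cortex of perfused mice was sequenced in paired ends. There were 4 libraries of APP/PS1 mice given trazodone, an antidepressant, 3 of APP/PS1 mice given distilled water and 6 of wild-type (WT) mice given distilled water. The library titles give 2 weeks for all 13 libraries. APP/PS1 mice carry transgenes for mutant amyloid precursor protein and presenilin and develop amyloid plaques. The sources used here do not give the line or promoter of the transgenes, the dose of trazodone, or the age and sex of the mice. The groups analysed did not include WT mice on trazodone. The labels do not say whether each library came from a separate mouse, so p-values measure the spread between these libraries. The labels name 2 instrument types without assigning libraries to them, so instrument and group cannot be told apart.

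Glycolysis splits glucose into pyruvate in the cytosol and yields a little ATP and NADH. Pyruvate is either reduced to lactate or enters mitochondria, where the pyruvate dehydrogenase complex turns it into acetyl-CoA for the citric acid cycle, the main feeder of the respiratory chain. In brain, several steps are shared out between paralogous enzymes, with one form found mostly in neurons and another in glia, and glia are held to pass lactate to neurons through monocarboxylate transporters.

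Levels are in TPM, the length-corrected share of each gene in a library. The depth was estimated from the step of a single mate of a read pair in the low values, within a bounded range of depths tried. It was 33700000 to 37000000 fragments in the APP/PS1 trazodone libraries, 30800000 to 32300000 in the APP/PS1 water libraries and 32700000 to 33700000 in the WT libraries. In each library, the log2 deviation of each gene from its mean over the 13 libraries was tied to GC content. The slope per 10 percentage points of GC was 0.0881 ± 0.0506 in the trazodone libraries and -0.195 ± 0.0365 in the APP/PS1 water libraries. In the WT libraries it was 0.0390 ± 0.0493 (SD, n = 4, 3 and 6). These slopes are relative to that mean, so a low slope in some libraries raises the slopes of the others. Mitochondrially encoded genes took 8.96% to 10.7%, 13.1% to 15.0% and 9.07% to 12.3% of the TPM in the same order of groups. The 3 APP/PS1 water libraries stood apart from the other 10 on both measures, and every comparison with them below rests on these 3 libraries. In these bulk samples, fewer cells of a type and less RNA per cell cannot be told apart.

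Glycolytic transcripts were lower in APP/PS1 water cortex than in WT cortex, while most transcripts of the citric acid cycle did not pass the test. Of the 16 glycolysis genes 12 fell and 1 rose, of the 5 lactate and transport genes none passed, of the 6 pyruvate dehydrogenase genes 2 fell and 1 rose, and of the 13 citric acid cycle genes 3 fell. In all, 17 of 40 genes fell and 2 rose, beside 17.5% and 6.19% of the 18612 genes tested, or 23.7% in either direction (limma on log2(TPM + 0.5), adjusted p under 0.05). The median log2 fold change was -0.32 on the glycolytic side, -0.02 on the mitochondrial side and -0.10 over all genes tested. The mitochondrial median turned positive under each of 4 other scalings (0.03 to 0.14). The split of calls, 2 higher and 17 lower, became 6 and 11 with FPKM, 6 and 8 with median-ratio scaling, 8 and 8 with quantile normalization and 4 and 16 without the mitochondrially encoded genes. The share over all genes under these scalings is not given here, so these splits are not read as a result about the 40 genes. All 19 called genes kept their sign under these scalings, and 8 of them kept their call. After correction for GC content and length, 7 genes passed, beside 12.7% of all genes, and the glycolytic median was -0.08. The 7 were Hk1, Aldoa, Pgam1, Dlat and Pdk2 as lower and Hk2 and Pfkfb3 as higher.

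Against the same APP/PS1 water libraries, most glycolysis transcripts were higher with trazodone. Of the 16 glycolysis genes 12 rose against APP/PS1 water and none fell, and of the pyruvate dehydrogenase genes 1 rose and 2 fell. Of the citric acid cycle genes 1 fell, namely Mdh1, whose enzyme is cytosolic. That made 13 of 40 genes higher and 3 lower, beside 12.5% and 3.92% of all genes tested, or 16.4% in either direction. The median was 0.32 on the glycolytic side, -0.01 on the mitochondrial side and 0.07 over all genes. The split of 13 and 3 became 10 and 6 with FPKM, 8 and 6 with median-ratio scaling, 6 and 8 with quantile normalization and 11 and 5 without the mitochondrially encoded genes, and all 16 called genes kept their sign and 9 of them their call under all 4. Here too the splits stand without the share over all genes and are not read as a result about the 40 genes. After correction for GC content and length, 3 genes passed (Hk1 as higher, Idh3g and Mdh1 as lower), beside 4.19% of all genes, and the glycolytic median was 0.11. Without APP/PS1 water replicate 1, 10 genes passed on the deposited TPM, beside 12.9% of all genes tested.

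Trazodone-treated APP/PS1 cortex differed from WT cortex in 1 of the 40 genes, Hk2, which was higher, beside 2.23% of all genes tested, or 1.97% higher. The medians were -0.0036 on the glycolytic side and -0.08 on the mitochondrial side, beside -0.04 over all genes. After correction for GC content and length, Idh3g also passed, lower with trazodone, beside 2.61% of all genes. The 3 comparisons share libraries, so a low value in the 3 APP/PS1 water libraries enters the first 2 with opposite sign.

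**Figure D1:**
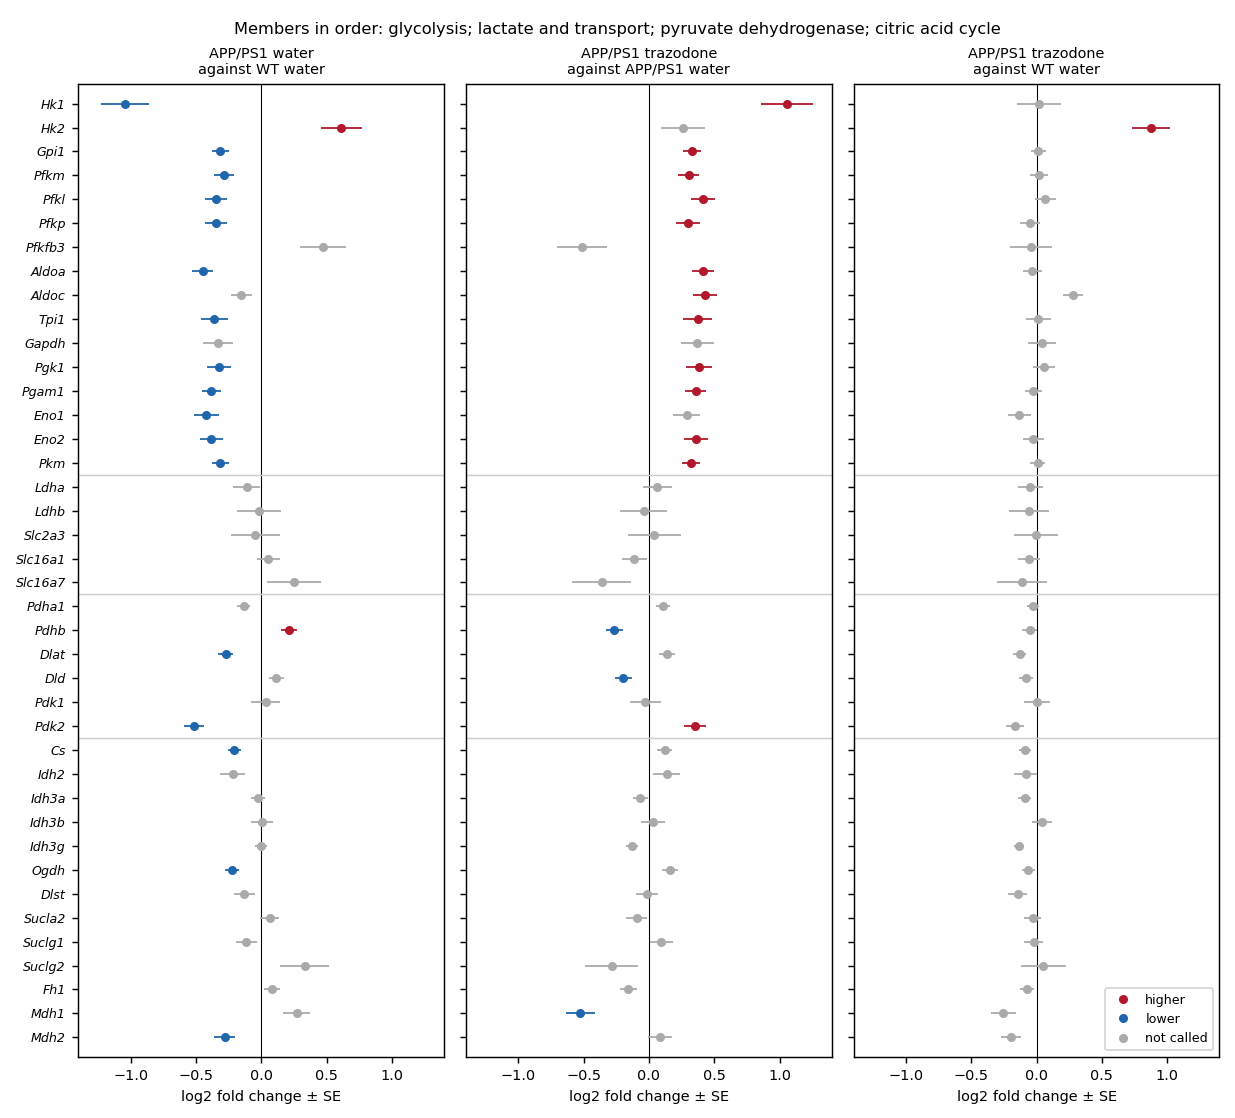
Log2 fold change (x axis, on log2(TPM + 0.5), with SE) of each of the 40 genes in the 3 comparisons, in order of pathway from top to bottom; red points passed as higher, blue as lower and grey did not pass. Most glycolysis genes lie left of 0 for APP/PS1 water against WT and right of 0 for trazodone against APP/PS1 water, while for trazodone against WT 1 gene, Hk2, passed.

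The summed TPM of the 16 glycolysis genes was 9676 to 10306 in the trazodone libraries, 7211 to 8101 in the APP/PS1 water libraries and 8781 to 10436 in the WT libraries. The APP/PS1 water libraries lay below both other groups, which overlapped. The 13 citric acid cycle genes summed to 2144 to 2261 TPM with trazodone, 2163 to 2425 TPM in APP/PS1 water cortex and 2224 to 2466 TPM in WT cortex, so that all 3 groups overlapped. Within these sums, Mdh1, whose enzyme is cytosolic, had 336 to 382 TPM, 441 to 567 TPM and 381 to 502 TPM in that order. The 6 pyruvate dehydrogenase genes summed to 744 to 776 TPM, 743 to 797 TPM and 775 to 829.7 TPM, and the 5 lactate and transport genes to 1076 to 1210 TPM, 925 to 1353 TPM and 1045 to 1355 TPM, in the same order of groups.

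Hexokinase, the entry step that phosphorylates glucose, gave both the greatest fall and the one rise among the glycolysis genes of APP/PS1 water cortex. Hk1 (chromosome 10, 62268855 to 62379908, minus strand, GRCm38) encodes the housekeeping brain hexokinase that binds mitochondria. Hk1 had 162, 251, 239.8 and 260.4 TPM in the APP/PS1 trazodone libraries, 115, 106 and 102 TPM in the APP/PS1 water libraries, and 151, 247 and 275 TPM as the lowest, median and highest of the WT libraries. The 3 APP/PS1 water libraries lay below every other library, and the lowest trazodone library and the lowest WT library were close to each other. Against WT, Hk1 in APP/PS1 water cortex had a log2 fold change, given here and below with its SE and limma's adjusted p, of -1.04 ± 0.18, adjusted p = 0.00118. With trazodone against APP/PS1 water it was 1.06 ± 0.20, adjusted p = 0.00311, and with trazodone against WT it was 0.02 ± 0.17, adjusted p = 0.983. The Hk1 calls held after the correction for GC content and length (-0.76, adjusted p = 0.0159, and 0.77, adjusted p = 0.0452). An antisense gene, Hk1os, overlaps an exon of Hk1, and 11 of the 40 genes have such an overlap. The strand of counting is not stated, so reads of such partners cannot be told apart.

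Hk2 (chromosome 6, 82725025 to 82774454, minus strand, GRCm38), the inducible hexokinase found in microglia and astrocytes in brain, was a low-level transcript. Hk2 had 4.47, 4.07, 4.57 and 3.90 TPM in the APP/PS1 trazodone libraries, 4.23, 3.72 and 2.62 TPM in the APP/PS1 water libraries, and 1.77, 2.00 and 2.62 TPM as the lowest, median and highest of the WT libraries. Every library of either APP/PS1 group lay above every WT library, while the APP/PS1 groups overlapped each other. The closest libraries were APP/PS1 water replicate 3 at 2.623 TPM and a WT library at 2.617 TPM. Hk2 rose against WT in APP/PS1 water cortex (0.61 ± 0.16, adjusted p = 0.0127) and in trazodone-treated cortex (0.87 ± 0.14, adjusted p = 0.00339). Between trazodone and APP/PS1 water the value was 0.26 ± 0.17, adjusted p = 0.343. The rise against WT in APP/PS1 water cortex did not pass without APP/PS1 water replicate 1 (adjusted p = 0.0695) or replicate 2 (adjusted p = 0.0576).

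Markers of microglia, the brain's resident macrophages, moved with Hk2. Of 10 microglial markers, 8 were higher in APP/PS1 water cortex than in WT cortex and 8 in trazodone-treated cortex than in WT cortex. Their sum was 946 to 1204 TPM with trazodone, 1032 to 1379 TPM in APP/PS1 water cortex and 313 to 382 TPM in WT cortex. The sum of 7 astrocyte markers was 2416 to 2747 TPM, 2427 to 2863 TPM and 1412 to 1657 TPM in the same order, with 4 markers called higher in APP/PS1 water against WT. Gfap alone averaged 1054, 945.5 and 151.8 TPM in that order and makes up most of the difference in the sum. Cst7, a marker of activated microglia, was listed at 0 in 3 of the 6 WT libraries, and no other marker of these lists was at 0 in any library. Their part in the Hk2 result was not tested.

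**Figure D2:**
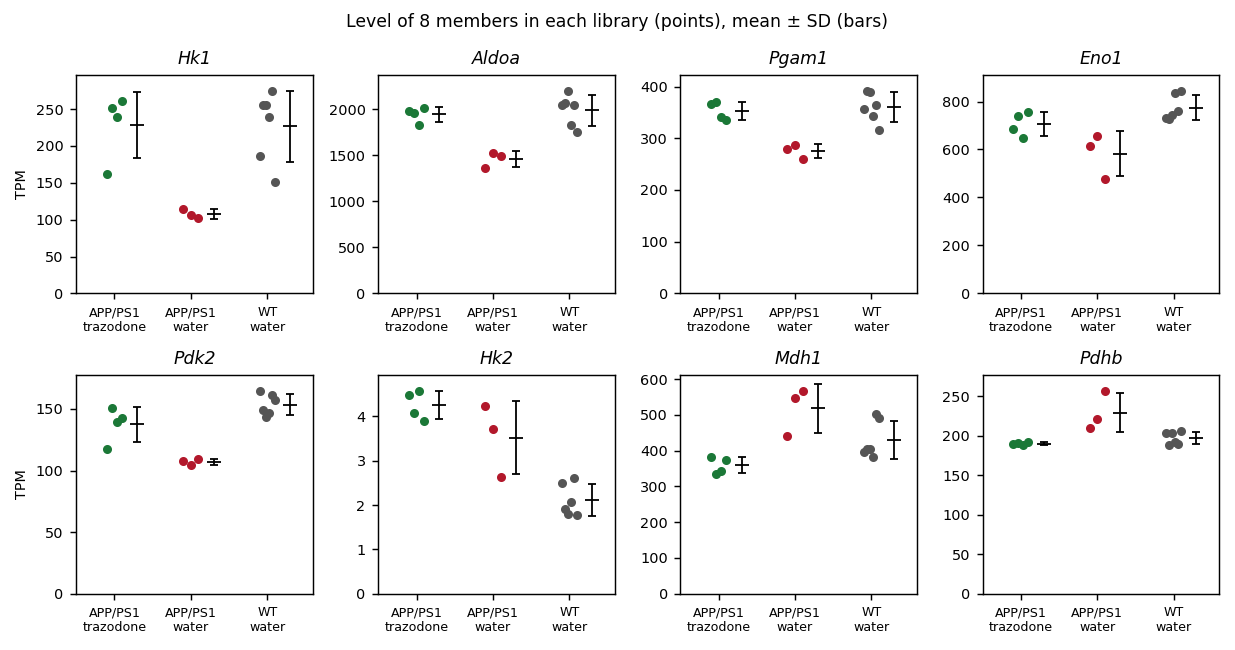
TPM (y axis, from 0) of 8 genes in every library, shown as points in the order trazodone, APP/PS1 water and WT, with mean ± SD beside them (n = 4, 3 and 6). Hk1, Aldoa, Pgam1 and Pdk2 are below both other groups in all 3 APP/PS1 water libraries, and Hk2 is above WT in all libraries of both APP/PS1 groups.

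The next steps rearrange and phosphorylate the sugar. Gpi1, glucose-6-phosphate isomerase, had 522, 532, 528 and 542 TPM in the APP/PS1 trazodone libraries, 417, 423 and 427 TPM in the APP/PS1 water libraries, and 479, 518 and 594 TPM as the lowest, median and highest of the WT libraries. The APP/PS1 water libraries lay below both other groups. Gpi1 fell in APP/PS1 water against WT (-0.32 ± 0.06, adjusted p = 0.00309) and was higher with trazodone than with water in APP/PS1 cortex (0.33 ± 0.07, adjusted p = 0.00622). Neither Gpi1 call held after correction for GC content and length (-0.16, adjusted p = 0.0824, and 0.17, adjusted p = 0.155). All 3 phosphofructokinase subunits, which form the committed enzyme of glycolysis, took the same course. In APP/PS1 water against WT, the log2 fold change was -0.29 ± 0.08 for Pfkm, -0.35 ± 0.09 for Pfkl and -0.34 ± 0.08 for Pfkp (adjusted p = 0.0134, 0.0101 and 0.00886). With trazodone against APP/PS1 water, the values were 0.31 ± 0.08, 0.42 ± 0.09 and 0.30 ± 0.09 (adjusted p = 0.0208, 0.00867 and 0.0386). None of the 3 passed after the correction for GC content and length, which left -0.08, -0.06 and -0.23 in the first comparison and 0.08, 0.11 and 0.27 in the second. The Pfkp value of the second comparison was thus close to the uncorrected one (adjusted p = 0.162). Pfkfb3, which makes the activator of phosphofructokinase, had opposite signs (0.47 ± 0.18, adjusted p = 0.0702 in the first comparison and -0.51 ± 0.19, adjusted p = 0.086 in the second) and did not pass in either on the deposited TPM. It passed in both with FPKM (adjusted p = 0.0279 and 0.0435), with median-ratio scaling and with quantile normalization, and in the first after the correction for GC content and length (0.60, adjusted p = 0.0212).

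Aldolase splits the 6-carbon sugar, and its forms differ between cell types. Aldoa (chromosome 7, 126795234 to 126800751, minus strand, GRCm38) encodes the widespread form that is abundant in muscle and neurons. Aldoa had 1979, 1955, 1824 and 2009 TPM in the APP/PS1 trazodone libraries, 1357, 1521 and 1490.3 TPM in the APP/PS1 water libraries, and 1753, 2049 and 2199.7 TPM as the lowest, median and highest of the WT libraries. The APP/PS1 water libraries were the lowest of all 13. Aldoa fell in APP/PS1 water against WT (-0.45 ± 0.08, adjusted p = 0.00123) and was higher with trazodone against APP/PS1 water (0.42 ± 0.09, adjusted p = 0.00548). After the correction for GC content and length the fall held (-0.23, adjusted p = 0.0393) and the rise did not (0.13, adjusted p = 0.364). Aldoc, the brain form enriched in astrocytes, had 641, 657, 717 and 713 TPM with trazodone, 502, 527 and 490.4 TPM in APP/PS1 water cortex, and 477 to 634 TPM (median 559) in WT cortex. Aldoc was higher in every trazodone library than in any other library. It passed against APP/PS1 water (0.43 ± 0.09, adjusted p = 0.00584) and not against WT (0.28 ± 0.08, adjusted p = 0.0857). After the correction Aldoc passed against neither (0.28, adjusted p = 0.142 against APP/PS1 water, and 0.26, adjusted p = 0.152 against WT).

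The later steps make the ATP of glycolysis. Pgk1, phosphoglycerate kinase, fell in APP/PS1 water against WT (-0.32 ± 0.09, adjusted p = 0.0229) and was higher with trazodone against APP/PS1 water (0.38 ± 0.10, adjusted p = 0.0199). Tpi1, triosephosphate isomerase, gave -0.36 ± 0.10, adjusted p = 0.021, and 0.37 ± 0.11, adjusted p = 0.0348, in the same comparisons. After correction for GC content and length, neither gene passed in either comparison. Pgk1 then gave -0.26, adjusted p = 0.0992, and 0.29, adjusted p = 0.139. Tpi1 gave -0.22, adjusted p = 0.164, and 0.18, adjusted p = 0.391. Gapdh, the dehydrogenase often used as a reference transcript, had 1754, 1550.2, 1551 and 1815 TPM with trazodone, 1027, 1325 and 1561 TPM in APP/PS1 water cortex, and 1390.4 to 1760.0 TPM (median 1639) in WT cortex. Its groups overlapped and it did not pass on the deposited TPM (-0.33 ± 0.12, adjusted p = 0.0516, and 0.37 ± 0.12, adjusted p = 0.0571). With quantile normalization it passed in the first comparison (-0.29, adjusted p = 0.0475).

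Pgam1 (chromosome 19, 41911923 to 41918660, plus strand, GRCm38), phosphoglycerate mutase, had 367, 369.5, 341 and 335 TPM in the APP/PS1 trazodone libraries, 279.9, 287 and 259.6 TPM in the APP/PS1 water libraries, and 315, 359.5 and 392 TPM as the lowest, median and highest of the WT libraries. The APP/PS1 water libraries lay below both other groups. Pgam1 fell in APP/PS1 water against WT (-0.38 ± 0.07, adjusted p = 0.00184) and held that call after the correction for GC content and length (-0.25, adjusted p = 0.0216). It was higher with trazodone against APP/PS1 water (0.36 ± 0.08, adjusted p = 0.00738), a call that was lost after the correction (0.18, adjusted p = 0.168). Pkm, pyruvate kinase, which closes glycolysis, had 1313, 1371, 1240.2 and 1326 TPM in the APP/PS1 trazodone libraries, 1016, 1079 and 1055 TPM in the APP/PS1 water libraries, and 1169, 1321 and 1376 TPM as the lowest, median and highest of the WT libraries. The APP/PS1 water libraries again lay below the rest. Pkm gave -0.31 ± 0.06, adjusted p = 0.00321 against WT and 0.32 ± 0.07, adjusted p = 0.00703 for trazodone against APP/PS1 water. Neither passed after the correction (-0.04, adjusted p = 0.709, and 0.01, adjusted p = 0.9575).

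Eno1 and Eno2 encode the broadly expressed and the neuronal enolase. Eno1 had 686, 738, 647 and 756 TPM with trazodone, 616, 654 and 476 TPM in APP/PS1 water cortex, and 726 to 845 TPM (median 754) in WT cortex. Its APP/PS1 water libraries lay below WT and overlapped trazodone. Eno2 had 768, 797, 873 and 814 TPM with trazodone, 602, 604 and 697 TPM in APP/PS1 water cortex, and 719.9 to 918 TPM (median 847) in WT cortex. Its APP/PS1 water libraries lay below both groups. Both fell in APP/PS1 water against WT (-0.42 ± 0.10, adjusted p = 0.00583 for Eno1, and -0.38 ± 0.09, adjusted p = 0.00583 for Eno2). Neither fall passed after correction for GC content and length (-0.17, adjusted p = 0.323 for Eno1, and -0.17, adjusted p = 0.199 for Eno2). With trazodone against APP/PS1 water, Eno2 passed (0.36 ± 0.09, adjusted p = 0.0187) and Eno1 did not (0.29 ± 0.10, adjusted p = 0.0718). After the correction Eno2 did not pass there either (0.13, adjusted p = 0.506). A call for Eno2 alone does not show that the 2 genes differed. The within-library log2 ratio of Eno2 over Eno1 differed by 0.07 in that comparison (exact permutation p = 0.686). The smallest p that test allows is 0.0286, so on its own it could not pass after adjustment over the 15 ratios described below.

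Excitatory neuron markers moved with the glycolysis genes. Of 9 such markers, 6 were lower in APP/PS1 water against WT and 6 higher with trazodone against APP/PS1 water. Their sum was 4732 to 5227 TPM with trazodone, 3212 to 3419 TPM in APP/PS1 water cortex and 3508 to 5353 TPM in WT cortex, and none was at 0. Nrgn alone averaged 2425, 1362 and 2065 TPM in that order and weighs heavily in the sum. In APP/PS1 water against WT, 2 of 6 inhibitory neuron markers and 1 of 6 oligodendrocyte markers were lower, and none of the oligodendrocyte precursor, endothelial, mural, erythroid or muscle markers passed. With trazodone against APP/PS1 water, 1 of 6 inhibitory neuron markers, 1 of 6 oligodendrocyte markers and 1 of 4 oligodendrocyte precursor markers were higher, and none of the other lists passed. These were Slc32a1, the vesicular GABA transporter (0.41 ± 0.11, adjusted p = 0.0197), Mbp, myelin basic protein (0.94 ± 0.22, adjusted p = 0.0107), and Olig1, a transcription factor of the oligodendrocyte lineage (0.37 ± 0.10, adjusted p = 0.0229). After correction for GC content and length, 1 of the 9 excitatory markers was lower in the first of these comparisons and 1 higher in the second, and no inhibitory, oligodendrocyte or precursor marker passed in the second. The part of cell content in the glycolysis counts was not tested.

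Lactate dehydrogenase and the transporters showed no called change. Ldha, the subunit that favours lactate formation, had 359, 309, 317 and 363 TPM with trazodone, 279, 332 and 359.5 TPM in APP/PS1 water cortex, and 288 to 397 TPM (median 351) in WT cortex. Ldhb, the subunit that favours lactate use, had 680.2, 772, 731 and 603 TPM with trazodone, 513, 823 and 860.0 TPM in APP/PS1 water cortex, and 567 to 849 TPM (median 769) in WT cortex. Both overlapped in all 3 groups. Slc16a1, the lactate transporter MCT1 of glia and endothelium, had 26.9, 31.8, 27.7 and 27.4 TPM with trazodone, 31.3, 27.5 and 33.5 TPM in APP/PS1 water cortex, and 26.3 to 33.7 TPM (median 29.2) in WT cortex. Slc16a7, the neuronal lactate transporter MCT2, had 15.6, 13.3, 14.1 and 8.15 TPM with trazodone, 18.9, 14.9 and 15.0 TPM in APP/PS1 water cortex, and 10.8 to 20.6 TPM (median 12.7) in WT cortex. Slc2a3, the neuronal glucose transporter GLUT3, ranged from 74.5 to 86.1 TPM with trazodone, 65.6 to 84.9 TPM in APP/PS1 water cortex and 46.1 to 97.8 TPM in WT cortex. For these 5 genes the adjusted p ranged from 0.427 to 0.954 in APP/PS1 water against WT and from 0.312 to 0.914 for trazodone against APP/PS1 water. With 3 libraries in a group and SEs of up to 0.23, differences of that size were not detectable here.

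Paired forms were compared as log2 ratios of TPM + 0.5 within each library, over 5 pairs and 3 comparisons. The form listed as neuron-associated was set over the form listed as glia-associated. No cell types were separated here, and Hk1, Aldoa and Eno1 are broadly expressed. A ratio is therefore not a measure of neuronal against glial expression. None of the 15 ratios passed after adjustment by Benjamini-Hochberg, and 3 had an unadjusted p under 0.05 (exact two-sided permutation tests over libraries). The smallest p these tests allow is 0.0119 for APP/PS1 water against WT, 0.0286 for trazodone against APP/PS1 water and 0.00476 for trazodone against WT. At any of these, a ratio on its own could not pass at 0.05 after adjustment over 15 ratios. Not passing therefore does not show that a ratio was unchanged.

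The Hk1 over Hk2 ratio was 5.03, 5.78, 5.57 and 5.89 in the trazodone libraries, 4.60, 4.66 and 5.04 in the APP/PS1 water libraries, and 5.96, 6.50 and 6.80 as the lowest, median and highest of the WT libraries. Both APP/PS1 groups lay below WT with no overlap. The difference was -1.66 for APP/PS1 water against WT (exact permutation p = 0.0119, adjusted p = 0.0893) and -0.86 for trazodone against WT (p = 0.00952, adjusted p = 0.0893). For trazodone against APP/PS1 water it was 0.80 (exact permutation p = 0.0857, adjusted p = 0.257). The Aldoa over Aldoc ratio averaged 1.51 ± 0.12 with trazodone, 1.52 ± 0.09 in APP/PS1 water cortex and 1.82 ± 0.17 in WT cortex (SD, n = 4, 3 and 6). The groups overlapped, with -0.31 for trazodone against WT (exact permutation p = 0.0190, adjusted p = 0.0952) and -0.30 for APP/PS1 water against WT (p = 0.0595, adjusted p = 0.223). With quantile normalization 4 ratios passed, namely these 2 pairs in either APP/PS1 group against WT (adjusted p = 0.0446 each). The other 3 pairs, Eno2 over Eno1, Ldhb over Ldha and Slc16a7 over Slc16a1, overlapped in every comparison, with differences from -0.25 to 0.20 and p from 0.381 to 0.943.

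**Figure D3:**
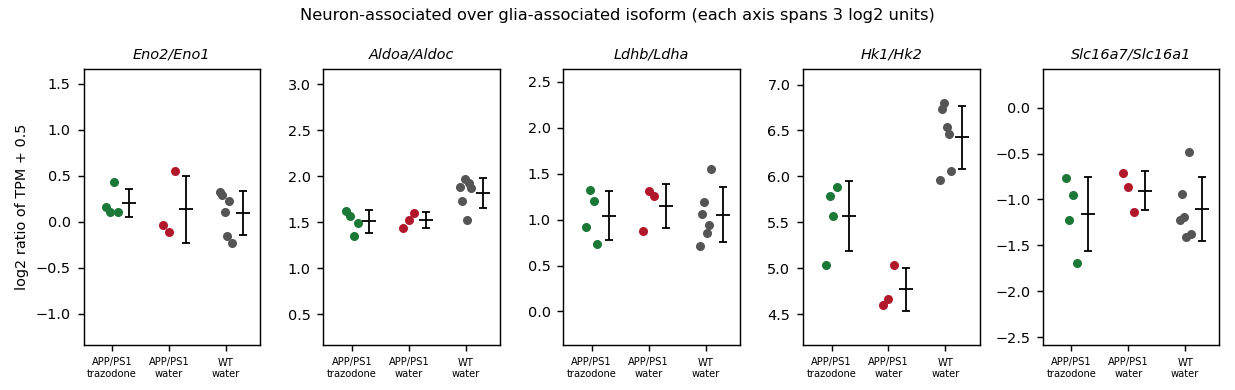
Log2 ratio (y axis, TPM + 0.5) of the form listed as neuron-associated over the form listed as glia-associated, for 5 pairs in every library. Points are in the order trazodone, APP/PS1 water and WT, with mean ± SD beside them (n = 4, 3 and 6). Each axis spans 3 log2 units. Hk1, Aldoa and Eno1 are broadly expressed, so the ratios do not measure neuronal against glial expression. Hk1 over Hk2 is the one pair of the 5 whose APP/PS1 libraries all lie below the WT libraries.

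At the gate to mitochondria, the pyruvate dehydrogenase genes were split. Pdk2 (chromosome 11, 95026258 to 95041354, minus strand, GRCm38) encodes a kinase that switches the complex off. Pdk2 had 117, 151, 139.7 and 142 TPM in the APP/PS1 trazodone libraries, 108, 105 and 109 TPM in the APP/PS1 water libraries, and 143, 153 and 165 TPM as the lowest, median and highest of the WT libraries. The APP/PS1 water libraries were the lowest of all 13. Pdk2 fell in APP/PS1 water against WT (-0.52 ± 0.07, adjusted p = 0.000303), also after the correction for GC content and length (-0.27, adjusted p = 0.0271). It was higher with trazodone against APP/PS1 water (0.35 ± 0.08, adjusted p = 0.0095), and lost that call after the correction (0.06, adjusted p = 0.725). Pdk1, the kinase known as a target of hypoxia signalling, overlapped in all groups (0.03 ± 0.11, adjusted p = 0.856, and -0.03 ± 0.12, adjusted p = 0.9).

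Pdhb, the beta subunit of the first enzyme of the complex, went the other way. Pdhb had 189, 190.2, 188 and 192 TPM in the APP/PS1 trazodone libraries, 209, 221 and 256 TPM in the APP/PS1 water libraries, and 188, 198 and 205 TPM as the lowest, median and highest of the WT libraries. All 3 APP/PS1 water libraries lay above both other groups. Pdhb rose in APP/PS1 water against WT (0.21 ± 0.06, adjusted p = 0.0251) and was lower with trazodone against APP/PS1 water (-0.26 ± 0.07, adjusted p = 0.017). Neither call held without APP/PS1 water replicate 3 (adjusted p = 0.144 and 0.0682) or after the correction for GC content and length, although the corrected values were close to the uncorrected ones (0.21, adjusted p = 0.0725, and -0.26, adjusted p = 0.0747).

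Pdha1, the alpha subunit of the same enzyme, gave -0.14 ± 0.05, adjusted p = 0.0723 and 0.11 ± 0.06, adjusted p = 0.219 in those 2 comparisons. Dlat, the acetyltransferase core, fell in APP/PS1 water against WT (-0.27 ± 0.06, adjusted p = 0.00379). Dld, the shared lipoamide dehydrogenase, had 122, 114, 111 and 105 TPM with trazodone, 124, 129.7 and 135 TPM in APP/PS1 water cortex, and 114 to 126 TPM (median 119) in WT cortex. The trazodone libraries lay below APP/PS1 water, and Dld was lower there (-0.20 ± 0.06, adjusted p = 0.0479), close to the threshold. The call was lost in 18 of 28 other settings, among them the fit of these groups alone and the correction for GC content and length (-0.02, adjusted p = 0.921), and held under the 4 other scalings. In APP/PS1 water against WT, Dld did not pass on the deposited TPM (0.12, adjusted p = 0.171) and passed as higher under all 4 of those scalings (0.20, adjusted p = 0.0201 with FPKM).

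In the citric acid cycle itself, 3 of 13 genes fell in APP/PS1 water against WT. Cs, the citrate synthase that starts the cycle, gave -0.21 ± 0.05, adjusted p = 0.011, Ogdh, the first enzyme of the oxoglutarate dehydrogenase complex, -0.23 ± 0.06, adjusted p = 0.0104, and Mdh2, the mitochondrial malate dehydrogenase, -0.28 ± 0.08, adjusted p = 0.0244. None of these 3 passed with median-ratio scaling, quantile normalization or the correction for GC content and length. Cs and Ogdh lay below WT in all 3 APP/PS1 water libraries, and Mdh2 overlapped.

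Mdh1 (chromosome 11, 21556787 to 21572367, minus strand, GRCm38) encodes the cytosolic malate dehydrogenase of the malate-aspartate shuttle, which carries NADH electrons into mitochondria. Mdh1 had 382, 336, 343 and 373 TPM in the APP/PS1 trazodone libraries, 441, 549 and 567 TPM in the APP/PS1 water libraries, and 381, 404 and 502 TPM as the lowest, median and highest of the WT libraries. The trazodone libraries lay below all APP/PS1 water libraries and overlapped WT, and APP/PS1 water overlapped WT. Mdh1 was lower with trazodone against APP/PS1 water (-0.53 ± 0.11, adjusted p = 0.00668), also after the correction for GC content and length (-0.50, adjusted p = 0.0237). In APP/PS1 water against WT it did not pass on the deposited TPM (0.27 ± 0.10, adjusted p = 0.0754) or after that correction (0.25, adjusted p = 0.135), but passed as higher under all 4 other scalings (0.36, adjusted p = 0.0265 with FPKM). It did not pass in trazodone against WT (-0.25 ± 0.09, adjusted p = 0.251). An antisense gene, Wdpcp, overlaps an exon of Mdh1.

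The other 9 cycle genes did not pass in any comparison of the deposited TPM. They encode the isocitrate dehydrogenases (Idh2, Idh3a, Idh3b, Idh3g), the succinyltransferase of the oxoglutarate complex (Dlst), the succinyl-CoA ligase subunits (Sucla2, Suclg1, Suclg2) and fumarase (Fh1). Their log2 fold changes ran from -0.22 for Idh2 to 0.33 for Suclg2 in APP/PS1 water against WT, and from -0.28 for Suclg2 to 0.14 for Idh2 with trazodone against APP/PS1 water. Idh3g, the regulatory subunit of the NAD-linked enzyme, had 152, 153, 156 and 149.9 TPM with trazodone, 167, 165 and 169 TPM in APP/PS1 water cortex, and 161 to 173 TPM (median 168) in WT cortex. Its trazodone libraries lay below both other groups. Idh3g did not pass on the deposited TPM (-0.13 ± 0.05, adjusted p = 0.0817 against APP/PS1 water, and -0.13 ± 0.04, adjusted p = 0.135 against WT) and passed in both comparisons after the correction for GC content and length (-0.24, adjusted p = 0.00999 against APP/PS1 water, and -0.16, adjusted p = 0.0411 against WT). Against APP/PS1 water it also passed under all 4 other scalings (-0.19, adjusted p = 0.0149 with FPKM). Fh1 passed as lower in that comparison under the same 4 scalings (-0.21, adjusted p = 0.0294 with FPKM), and as higher in APP/PS1 water against WT under 3 of them (0.17, adjusted p = 0.0468 with FPKM). Idh3a in the comparison of trazodone with APP/PS1 water, and Sucla2 in both comparisons with APP/PS1 water, passed with quantile normalization alone among these settings, as did Idh3g in APP/PS1 water against WT.

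Counted without a test, 3 of the 40 genes lay wholly above and 13 wholly below WT in the APP/PS1 water libraries, beside 6.55% and 16.5% of all genes tested, or 23.1% either way. With trazodone against APP/PS1 water, 16 lay wholly above and 4 wholly below, beside 18.1% and 8.35%, or 26.5% either way. With trazodone against WT, 2 (Hk2 and Aldoc) lay above and 3 (Dlat, Idh3g and Mdh2) below, beside 3.25% and 1.83%, or 5.07% either way.

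The fold changes of the 40 genes followed their GC content in the comparisons with APP/PS1 water. The median GC content was 52.6% on the glycolytic side, 47.2% on the mitochondrial side and 49.6% over all genes tested. Across the 40 genes, Pearson's r between GC content and the log2 fold change was -0.618 in APP/PS1 water against WT, 0.694 for trazodone against APP/PS1 water and 0.141 for trazodone against WT. After the correction the values were -0.299, 0.291 and -0.0463. These correlations run across genes of the same libraries, which are not independent replicates. Since the GC slope itself differed between the groups, base composition and group cannot be told apart here.

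**Figure D4:**
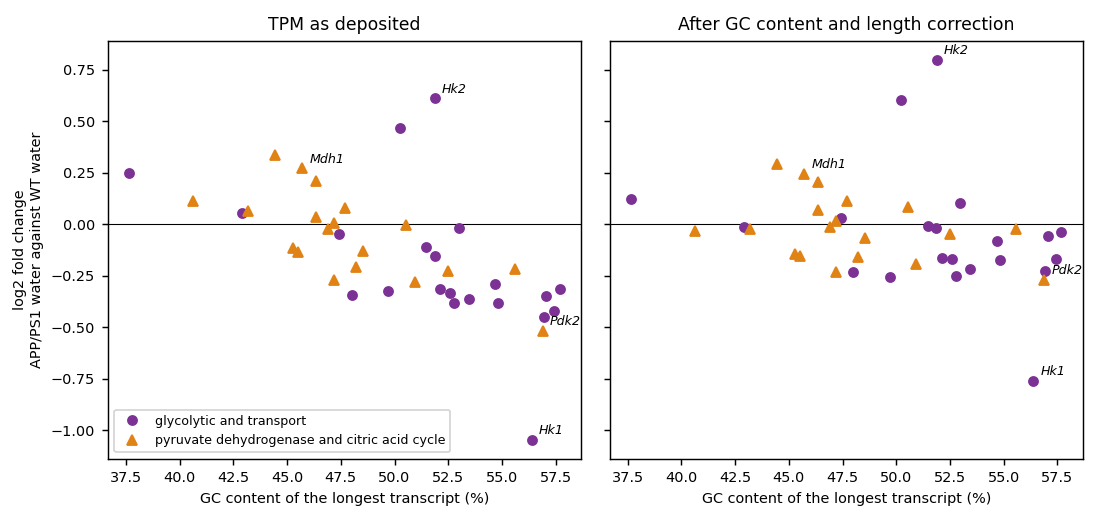
GC content of the longest transcript (x axis, percent) against the log2 fold change of APP/PS1 water against WT (y axis) for the 40 genes, with deposited TPM on the left and after correction for GC content and length on the right; circles are the glycolytic side and triangles the mitochondrial side. The downward trend on the left (r = -0.618) is smaller on the right (r = -0.299), and Hk1 stays lowest in both.

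The sequence upstream of the genes was searched for ACGTG, the core of the hypoxia response element bound by HIF1, a known activator of glycolysis genes. RefSeq promoter windows of GRCm38.p6 were found for 37 of the 40 genes, and the 250 bases before the start were read on both strands. ACGTG was present for 9 of 19 glycolytic genes (47.4%), 5 of 18 mitochondrial genes (27.8%) and 18.5% of all 27025 genes with a window. A gene was counted if any of its windows matched. The 37 genes had 56 windows and all genes 32851, of which 16.6% matched, so the 37 had more windows per gene. The windows of these genes had a median GC content of 60.4%, against 52.4% for all windows. AAGGTCA, the half-site of the estrogen-related receptors that act on mitochondrial genes, was present for 1 of the 37, Eno1, beside 4.7% of all genes. The windows of 4 genes with called changes follow as examples, with ACGTG or its reverse complement CACGT in capitals. The windows of Hk2, Pfkm, Pkm, Pdhb, Ogdh and Mdh1, which also had called changes, hold the letters too and are not printed. Each is printed 5′ to 3′ on the gene's own strand and ends just before the RefSeq start, which for Pgam1 and Pdk2 lay 52 and 17 bases upstream of the GENCODE gene start. Aldoa has 3 windows, and the one shown belongs to a start 1573 bases downstream of the GENCODE gene start, inside the gene.
Aldoa (chr7:126799179-126799428, minus strand): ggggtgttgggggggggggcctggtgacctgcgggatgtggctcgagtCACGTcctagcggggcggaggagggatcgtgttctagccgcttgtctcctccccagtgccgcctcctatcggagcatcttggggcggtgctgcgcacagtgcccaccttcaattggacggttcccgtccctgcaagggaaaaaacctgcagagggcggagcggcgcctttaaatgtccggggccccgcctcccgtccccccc
Pgk1 (chrX:106186850-106187099, plus strand): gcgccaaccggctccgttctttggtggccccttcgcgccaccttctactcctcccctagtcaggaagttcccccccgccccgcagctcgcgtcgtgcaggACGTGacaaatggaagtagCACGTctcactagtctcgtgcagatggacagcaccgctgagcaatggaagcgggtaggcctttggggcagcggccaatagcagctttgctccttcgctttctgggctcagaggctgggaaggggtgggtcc
Pgam1 (chr19:41911621-41911870, plus strand): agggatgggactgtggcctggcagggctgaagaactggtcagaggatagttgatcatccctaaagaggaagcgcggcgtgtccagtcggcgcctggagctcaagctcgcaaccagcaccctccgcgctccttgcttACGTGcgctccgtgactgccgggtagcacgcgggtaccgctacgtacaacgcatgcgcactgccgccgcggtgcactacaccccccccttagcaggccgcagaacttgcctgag
Pdk2 (chr11:95041372-95041621, minus strand): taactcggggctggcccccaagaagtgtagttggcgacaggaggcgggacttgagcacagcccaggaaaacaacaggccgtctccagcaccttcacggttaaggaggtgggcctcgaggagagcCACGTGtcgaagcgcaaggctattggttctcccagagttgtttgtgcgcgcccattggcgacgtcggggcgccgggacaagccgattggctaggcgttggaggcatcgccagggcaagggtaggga
The match begins 202 bases before the start in Aldoa, 150 and 131 in Pgk1, 114 in Pgam1 and 126 in Pdk2, where CACGTG reads as a match on both strands. A match is a description of these letters and was not measured as a binding site.

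Other genes of these pathways were read out from lists. Of 20 other glycolysis genes tested, 2 were higher and 4 lower in APP/PS1 water against WT, 2 higher and none lower with trazodone against APP/PS1 water, and 2 higher and none lower with trazodone against WT. Hk3, the hexokinase of myeloid cells, rose against WT in APP/PS1 water cortex (0.92 ± 0.16, adjusted p = 0.00134) and in trazodone-treated cortex (0.73 ± 0.15, adjusted p = 0.0173), beside the microglial marker sums given above. Pgam2, the muscle form of phosphoglycerate mutase, fell in APP/PS1 water against WT (-0.64 ± 0.14, adjusted p = 0.00375) and was higher with trazodone against APP/PS1 water (0.65 ± 0.15, adjusted p = 0.00867). Pgam5, a mitochondrial protein phosphatase of the same family, did likewise (-0.62 ± 0.12, adjusted p = 0.00257, and 0.59 ± 0.13, adjusted p = 0.00884). Slc16a3, the lactate exporter MCT4, was higher than in WT both with trazodone (1.13 ± 0.27, adjusted p = 0.0491) and in APP/PS1 water cortex (0.92 ± 0.30, adjusted p = 0.0387), and did not pass between trazodone and APP/PS1 water (0.20 ± 0.32, adjusted p = 0.721). After correction for GC content and length, 3 of the 20 passed as higher and 2 as lower in APP/PS1 water against WT, none with trazodone against APP/PS1 water and 2 as higher with trazodone against WT.

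Of 29 other genes of pyruvate and citric acid cycle metabolism, 2 were higher and 8 lower in APP/PS1 water against WT, 7 higher and none lower with trazodone against APP/PS1 water, and none passed with trazodone against WT. Pcx, the pyruvate carboxylase that refills the cycle and in brain is held to be astrocytic, fell (-0.37 ± 0.06, adjusted p = 0.000661) and was higher with trazodone against APP/PS1 water (0.33 ± 0.07, adjusted p = 0.00428). Got1, the cytosolic aspartate aminotransferase that works with Mdh1 in the malate-aspartate shuttle, fell (-0.38 ± 0.06, adjusted p = 0.00054) and was higher with trazodone (0.31 ± 0.06, adjusted p = 0.00568), the opposite sign to Mdh1 in both comparisons. Slc25a1, the mitochondrial citrate carrier, was higher with trazodone against APP/PS1 water (0.58 ± 0.10, adjusted p = 0.00231). Me1, cytosolic malic enzyme, rose in APP/PS1 water against WT (0.38 ± 0.07, adjusted p = 0.00119). After correction for GC content and length, 3 of these 29 passed as higher and 2 as lower in the first comparison, and none passed in the second.

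Of 7 genes of the pentose phosphate pathway, which branches from glucose-6-phosphate to make NADPH, none passed in APP/PS1 water against WT, and Tkt, transketolase, was higher with trazodone against APP/PS1 water (0.27 ± 0.08, adjusted p = 0.0433). Of 12 other hypoxia-responsive genes, 2 were higher and 2 lower in APP/PS1 water against WT. Bnip3, a mitophagy receptor (0.23 ± 0.06, adjusted p = 0.0178), and Egln3, a prolyl hydroxylase that marks HIF1 for breakdown (0.28 ± 0.08, adjusted p = 0.0203), rose, while Ddit4, an inhibitor of mTORC1 (-0.78 ± 0.12, adjusted p = 0.000447), and Adm, adrenomedullin (-0.83 ± 0.22, adjusted p = 0.013), fell. Ddit4 was the 1 gene of the 12 to pass with trazodone against APP/PS1 water, where it was higher (0.56 ± 0.13, adjusted p = 0.00998). Egln3 was the 1 to pass with trazodone against WT, also higher (0.30 ± 0.07, adjusted p = 0.0416), and did not pass between trazodone and APP/PS1 water (0.03 ± 0.08, adjusted p = 0.867). Once GC content and length were corrected for, no gene of the pentose phosphate or hypoxia list passed with trazodone against APP/PS1 water.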

How the data were processed

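Per the labels' protocols, poly(A) RNA of 13 cortex libraries was sequenced in paired ends. Reads were processed with fastp, STAR and DESeq2 on GRCm38 (mm10), per the submitters' processing notes. The sources used here give no versions, annotation release or strand of counting. The authors deposited TPM and FPKM tables, each with 1 column per library and 53832 entries, of which 25412 carry merged transcript-model IDs (MSTRG). The deposited TPM equal the deposited FPKM rescaled to the same sum in each library, within 0.0087 TPM. No counts were analysed here. Depth was estimated from the smallest steps of FPKM times length over genes with a single exon of 1000 bases or more. A step was taken as a single mate of a read pair, and the depths tried covered a bounded range, so the estimate depends on both choices. Of the low values, 43% to 51% lay on a step (tolerance 0.05), so no count test was run.

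The 40 genes were matched by symbol. Coordinates, GC content and length came from GENCODE M21 (GRCm38) by symbol, which stands in for the authors' unnamed release. Merged models and copies make some levels uncertain: Gpi1, Pfkm, Pfkl and Pkm have a neighbour without an entry of its own, and Aldoa, Gapdh, Pgk1, Pgam1 and Ldha have named pseudogenes.

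The 18612 genes whose mean reached 0.5 TPM were fitted with limma 3.58.1 in R 4.3.3 on log2(TPM + 0.5), all 3 groups in a single fit with a trended variance, two-sided, with Benjamini-Hochberg adjustment over all genes tested and a threshold of 0.05. Fold changes on that scale understate the change of low genes. Isoform ratios were tested by exact permutation over libraries. Alternatives were other pseudocounts, minimum levels, FPKM, median-ratio scaling, quantile normalization, rescaling without mitochondrially encoded genes, correction for GC content and length (loess over 18253 genes with a GENCODE value), robust variances, array weights, fits of the compared groups alone, replicate blocks and leaving out each library. The fit was tested on simulated data.

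Labels give the groups shared replicate numbers. In title numbers, 2 of 10 pairs had a correlation of deviations over 0.1, and the same held for library-name numbers, so these numbers are not taken as pairs and the fit reported has no block.

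Members and gene lists were chosen with earlier results of these data known. Values are given for members of the isoform pairs and, per comparison, for the called members with the smallest p, up to 6 per direction. Of the other pathway lists, they are given for up to 3 called genes per list and comparison. Egln3 and Slc16a3 were added to these in APP/PS1 water against WT. Marker lists are given by counts and sums, with single values for Slc32a1, Mbp, Olig1, Gfap and Nrgn only.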

Additional observations from a re-analysis of the deposited data

Results flagged for a closer look

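Of 80 sets of values (40 genes in the 2 groups of at least 4 libraries), 4 held a library far from the others by Dixon's test, and chance flags about 1 in 20. Tpi1 in WT replicate 6 was at 452 TPM, with the next WT library at 547 TPM and the highest at 591 TPM. Slc2a3 in the same library was at 46.1 TPM, with the next at 82.5 TPM and the highest at 97.8 TPM. Slc16a1 in trazodone replicate 2 was at 31.8 TPM, with the next trazodone library at 27.7 TPM and the lowest at 26.9 TPM. Suclg2 in WT replicate 1 was at 10.1 TPM, with the next WT library at 16.0 TPM and the highest at 18.4 TPM. Without WT replicate 6, 23 of the 40 genes passed in APP/PS1 water against WT, beside 25.1% of all genes tested, and 17 in trazodone against APP/PS1 water, beside 17.2%.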

How the results depend on the processing

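Over 28 other settings, the 36 calls of single genes gave 1008 recomputed values, of which 856 kept their call and direction, 152 lost the call and none reversed. The calls lost most often were those of Dld (18 settings), Pfkp (15) and Tpi1 (14) in trazodone against APP/PS1 water and of Mdh2 (11) in APP/PS1 water against WT. The number of called genes was 19 in APP/PS1 water against WT, 16 in trazodone against APP/PS1 water and 1 in trazodone against WT. With correction for GC content and length it was 7, 3 and 2, and the cause was not tested. The correction set the glycolytic median to -0.0806 and 0.112 in the first 2 comparisons. The medians of APP/PS1 water against WT on the glycolytic side were -0.211 with median-ratio scaling and -0.165 with quantile normalization, and on the mitochondrial side 0.0656 with FPKM, 0.0802 with median-ratio scaling, 0.137 with quantile normalization and 0.0329 without mitochondrially encoded genes. For trazodone against APP/PS1 water, the mitochondrial median was -0.0713, -0.0898, -0.123 and -0.0774 in the same settings and the glycolytic median 0.202 with quantile normalization. Quantile normalization also let 4 of 15 isoform ratios pass, against none as reported.

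With a replicate block on the title number, 18, 14 and 1 genes passed and the mitochondrial median of APP/PS1 water against WT was -0.0721. With a replicate block on the number in the library name, 6 and 9 genes passed in the first 2 comparisons. The share of all genes passing with either block is not given here, so these counts are not read as a result about the 40 genes.

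Leaving out each library gave 15 to 23, 10 to 17 and 1 to 1 called genes, and 0 to 0 isoform ratios. The share of all genes tested that passed ran from 17% to 25.1%, from 11.2% to 17.2% and from 1.5% to 2.33% in the same fits. The glycolytic median ran from -0.35 to -0.26, from 0.30 to 0.33 and from -0.02 to 0.02, and the mitochondrial median from -0.0724 to -0.0102, from -0.043 to 0.0384 and from -0.0946 to -0.0582, in the same order of comparisons. The count of 10 came without APP/PS1 water replicate 1, beside 12.9% of all genes tested. The mitochondrial medians farthest from the reported values were 0.0384 without trazodone replicate 4 and -0.0724 without APP/PS1 water replicate 3.

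Each comparison with APP/PS1 water rests on 3 libraries that differ in GC slope from the rest. Hk2, at 1.77 to 4.57 TPM, has the lowest level of the 40 genes and so rests on the fewest fragments per base. The medians under these alternatives and the GC correction of the isoform ratios were added after seeing the data.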
